A study of Mus musculus with 12 samples.

Results

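The NF-κB family of gonadal fat was examined as 10 genes: the subunits Nfkb1, Rela, Rel, Nfkb2 and Relb, and the inhibitors and IκB relatives Nfkbia, Nfkbib, Nfkbie, Nfkbiz and Bcl3. They were taken by symbol from the table of 55281 genes, each symbol met 1 row, and all 10 passed the filter on low counts that left 18427 genes for testing. The libraries came from gonadal white adipose tissue (GWAT) of male mice that were fed from 6 weeks of age for 16 weeks with a control diet (CD, 14% fat) or a high-fat diet (HFD, 60% fat) and were 22 to 24 weeks old at harvest, as the labels give it. The fat content of the CD and the age at the start differ slightly in the study's methods. HoipA-KO mice were Hoip fl/fl and carried AdipoQ.Cre, and WT mice were Hoip fl/fl without the Cre, so both genotypes held the floxed alleles of Hoip (Rnf31). Adipoq drives the Cre in mature adipocytes, and the other cells of the fat kept Hoip. There were 4 groups of 3 libraries, each made from tissue of 3 mice pooled, so a replicate is a pool and the p-values measure the spread between pools.

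NF-κB proteins are dimers that IκB inhibitors hold in the cytoplasm. In the canonical arm, receptors such as those for TNF or bacterial products recruit ubiquitin ligases, among them the linear ubiquitin assembly complex LUBAC that HOIP belongs to, the IκB kinase (IKK) complex is activated, IκBα is degraded, and dimers of p50, RelA or c-Rel enter the nucleus. In the noncanonical arm, stabilized NF-κB-inducing kinase (NIK) drives processing of p100 to p52, which pairs with RelB. Several subunits and inhibitors are themselves NF-κB targets, which gives the pathway feedback at the level of transcription.

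WT CD libraries stood apart from each other, and this touches every comparison with that group. Total counts ran from 30513500 to 60540260 over the 12 libraries. Log expression of libraries of 1 group correlated across genes with r between 0.785 and 0.993, and the lowest values were those of WT CD. In WT CD replicate 3, 929 genes exceeded each of the other libraries more than 8 times, with 14.1% of the counts, and 5 spermatid genes chosen after the data were seen (Prm1, Prm2, Tnp1, Tnp2 and Odf1) summed to 7249 CPM (counts relative to the library total, scaled by TMM) against 0.0222 to 302 in the other libraries. In WT CD replicate 2, 162 genes with 5.61% of the counts stood apart in this way, and 5 epididymal genes summed to 14986 CPM against 0.133 to 1312 elsewhere. The authors left WT CD replicate 3 out of their deposited comparisons. Tests below use the other 11 libraries. Values over all 12 are given where they end a call of a member, and counts for the other genes where these fell. CPM values are shown for all 12 on 1 scale. Rnf31 itself had 12.8 to 21.2 CPM on CD and 18.2 to 20.0 on HFD in WT pools, and 17.7 to 21.8 on CD and 18.8 to 22.5 on HFD in HoipA-KO pools. The groups overlapped, so the summed exons of Rnf31 in whole fat gave no check of the genotype labels.

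Markers of several cell types moved with genotype, and in WT with diet. A list of 8 macrophage markers summed to 201 to 328 CPM on CD and 785 to 2479 on HFD in WT, against 3396 to 4071 and 2714 to 4273 in HoipA-KO, and no marker was at 0 in all libraries of a group. On CD, 7 of the 8 were called higher in HoipA-KO, with a median log2 fold change of 3.65. A list of 8 adipocyte markers, which checks the labelled tissue, summed to 11457 to 40073 CPM on CD and 21385 to 28179 on HFD in WT, against 5997 to 9021 and 5404 to 7995 in HoipA-KO. On CD, 7 of these 8 were called lower, with a median of -1.92. A list of 5 mast cell markers summed to 20.3 to 30.4 CPM on CD and 27.4 to 209 on HFD in WT, against 549 to 658 and 306 to 806 in HoipA-KO. Of 5 T cell markers 1 was called higher on CD, of 4 B cell markers 0, of 4 dendritic cell markers 2 and of 4 neutrophil markers tested 1. In these lists 0 were lower, and over all 12 libraries 1 dendritic cell marker was called higher. Of 4 endothelial markers 2 were called lower on CD and 2 on HFD, with medians of -1.02 and -1.04, and 1 and 0 over all 12 libraries. Of 3 pericyte markers 1 was higher and 1 lower on CD, of 4 progenitor markers 1 was higher on CD, and of 5 epididymal markers 1 was lower on CD. Of all genes tested, 18.9% were called higher and 18.8% lower on CD, and 4.2% and 7.62% on HFD. Beside the shares on CD, a count of 1 in lists this short does not mark a cell type out. More cells of a type and more RNA per cell cannot be told apart in whole tissue, and the part of these shifts in the results below was not tested.

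**Figure D1:**
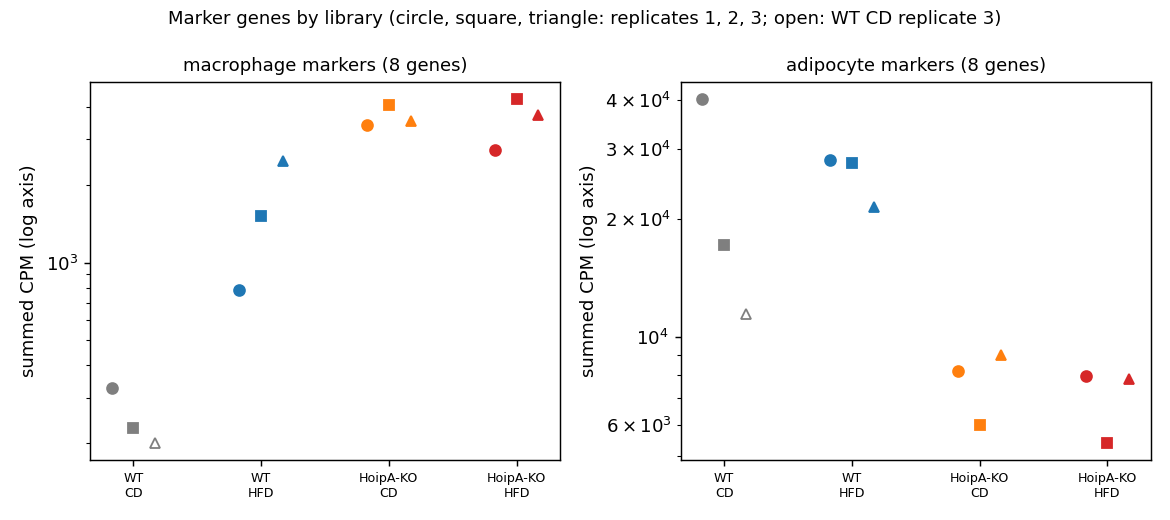
Summed CPM of 8 macrophage and 8 adipocyte marker genes on log axes, 1 point per library in the 4 groups. Macrophage markers lie at 201 to 328 in WT CD and at 2714 or more in every HoipA-KO library, while adipocyte markers lie at 9021 or less in every HoipA-KO library.

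The promoters of these genes are shown because several members moved together and because the family is known to bind its own promoters. Promoter entries of RefSeq on GRCm38.p6 matched 7 of the 10 members, with 3 starts for Nfkb2, and Nfkb1, Relb and Nfkbiz had none. The 250 bases before the start were searched on both strands for GGGNNNTTCC and, separately, for the degenerate κB consensus, and the 2 searches overlap. Of 32851 promoters 4.65% held the first motif and 3.9% the second. Nfkbie, Rel, Nfkbia and each of the 3 starts of Nfkb2 held both, and Bcl3, Rela and Nfkbib held neither. The sequences of 4 members read 5′ to 3′ on the strand of the gene, with the matched bases in capitals, at chr17:45555450-45555699 (plus strand), chr11:23770970-23771219 (minus strand), chr7:19822756-19823005 (minus strand) and chr12:55492648-55492897 (minus strand).
Nfkbie: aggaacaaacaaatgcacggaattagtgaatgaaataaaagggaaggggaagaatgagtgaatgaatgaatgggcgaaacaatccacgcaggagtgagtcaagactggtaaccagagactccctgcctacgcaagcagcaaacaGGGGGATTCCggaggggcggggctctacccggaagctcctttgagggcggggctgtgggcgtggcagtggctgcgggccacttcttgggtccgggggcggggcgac
Rel: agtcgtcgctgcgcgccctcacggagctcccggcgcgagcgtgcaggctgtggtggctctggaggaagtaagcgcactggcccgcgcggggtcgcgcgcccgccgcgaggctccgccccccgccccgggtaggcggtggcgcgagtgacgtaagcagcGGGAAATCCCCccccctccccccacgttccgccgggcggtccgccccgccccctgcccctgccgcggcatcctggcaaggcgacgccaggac
Bcl3: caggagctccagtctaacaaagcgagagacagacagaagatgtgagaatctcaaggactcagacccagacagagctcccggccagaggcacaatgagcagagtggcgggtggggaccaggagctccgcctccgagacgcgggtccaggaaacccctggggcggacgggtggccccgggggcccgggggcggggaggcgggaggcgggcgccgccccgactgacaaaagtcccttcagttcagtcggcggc
Nfkbia: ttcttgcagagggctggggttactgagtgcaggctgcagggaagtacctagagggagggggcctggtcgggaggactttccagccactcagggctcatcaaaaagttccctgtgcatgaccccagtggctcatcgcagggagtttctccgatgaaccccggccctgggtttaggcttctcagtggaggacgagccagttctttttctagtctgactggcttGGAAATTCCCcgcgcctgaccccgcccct
In Nfkbie the match began 106 bases before the start, in Rel 91 or 92 and in Nfkbia 29. At the 3 starts of Nfkb2 the windows held the matches GGGGCTTTCC and GGAATTCCCC, GGAATGTCCC, and GGGACTTTCC. Nfkbia held a match and was not called in any comparison, whereas Bcl3 held none and was called in 3. Rel, Nfkbie and Nfkb2 held a match and were called on CD, and Rela and Nfkbib held none and were not called. The members were chosen with earlier results known, so this tally is a description only. A link between matches and calls was not tested. A match is a description of letters in this window and not a site that was measured.

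On CD, 6 of the 10 members were higher in HoipA-KO than in WT GWAT and none was lower. These were Rel, Bcl3, Nfkbie, Nfkb2, Nfkb1 and Relb, with log2 fold changes from 1.99 for Rel down to 0.61 for Relb. Rela, Nfkbia, Nfkbib and Nfkbiz were not called. Of all genes tested, 18.9% were called higher and 18.8% lower (edgeR's quasi-likelihood test, adjusted p under 0.05). At an unadjusted p under 0.05 the members gave the same counts of 6 and 0, beside 23.4% of all genes higher and 25% lower, and so did DESeq2, beside 21.2% and 23.7%. Over all 12 libraries 6 members were again called higher, beside 15.6% of all genes higher and 19.1% lower. The median log2 fold change over the 10 members was 0.76 against -0.06 over all genes tested. The CPM of 7 members did not overlap between the genotypes over all 12 libraries. The share of all genes without overlap was not counted in any comparison, so a lack of overlap does not mark a member out.

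Among the canonical subunits, Nfkb1, Rel and Rela behaved differently. Nfkb1, which encodes p105 and its product p50 (chromosome 3, 135584655 to 135691547, minus strand), had 51.8, 43.3 and 29.3 CPM in WT CD (values are given in the order of replicates 1 to 3) and 85.2, 93.0 and 82.5 in HoipA-KO CD. All HoipA-KO libraries were above all WT ones. The log2 fold change was 0.92 ± 0.183 (SE, 2 WT and 3 HoipA-KO pools, edgeR adjusted p = 0.00447). Rel, which encodes c-Rel, the subunit best known from lymphoid and myeloid cells (chromosome 11, 23736847 to 23770970, minus strand), had 4.83, 4.28 and 6.61 CPM in WT CD and 18.0, 21.7 and 12.5 in HoipA-KO CD. The lowest HoipA-KO library was above the highest WT one, and Rel rose by 1.99 ± 0.297 on the log2 scale (edgeR adjusted p = 0.00112), the largest estimate among the members. Rela, which encodes the ubiquitous p65 subunit (chromosome 19, 5637483 to 5648130, plus strand), had 70.9, 68.2 and 45.5 CPM in WT CD and 77, 72.1 and 85.0 in HoipA-KO CD. These groups did not overlap either, but they lay close, at 0.21 ± 0.1251 (edgeR adjusted p = 0.212).

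Of the noncanonical subunits, Nfkb2 rose and Relb sat at the threshold. Nfkb2, which encodes p100 and p52 (chromosome 19, 46304320 to 46312385, plus strand), had 23.0, 16.5 and 12.9 CPM in WT CD and 38.5, 42.9 and 50.6 in HoipA-KO CD. The groups did not overlap, and the log2 fold change was 1.197 ± 0.201 (edgeR adjusted p = 0.00192). Relb, the partner of p52 (chromosome 7, 19606217 to 19629438, minus strand), had 17.3, 13.3 and 9.46 CPM in WT CD and 22.3, 19.0 and 26.7 in HoipA-KO CD. It rose by 0.61 ± 0.197 (edgeR adjusted p = 0.0364), and 15 of 23 alternatives ended this call, with adjusted p up to 0.182 when WT CD replicate 2 was left out. Leaving out HoipA-KO CD replicate 3 gave 0.39 (edgeR adjusted p = 0.139).

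The cytoplasmic inhibitors split. Nfkbie, which encodes IκBε (chromosome 17, 45555703 to 45563169, plus strand), had 4.41, 3.82 and 4.06 CPM in WT CD and 12.1, 15.8 and 14.1 in HoipA-KO CD. The 2 groups were far apart beside a WT SD of 0.296 CPM (n = 3), and the log2 fold change was 1.81 ± 0.194 (edgeR adjusted p = 0.000452). Nfkbia, which encodes IκBα, the classical feedback inhibitor (chromosome 12, 55489410 to 55492647, minus strand), had 97.8, 52.7 and 37.0 CPM in WT CD and 83.8, 53.2 and 94.8 in HoipA-KO CD. The WT libraries alone spanned the HoipA-KO values from end to end, and the estimate was 0.08 ± 0.303 (edgeR adjusted p = 0.862), turning to -0.30 without WT CD replicate 2. Nfkbib, which encodes IκBβ (chromosome 7, 28758251 to 28767512, minus strand), had 19.6, 20.5 and 52.0 CPM in WT CD and 23.1, 20.8 and 30.5 in HoipA-KO CD. The value of 52.0 was that of WT CD replicate 3, which stands apart as described above, and with this library the estimate turned from 0.34 ± 0.178 to -0.31 ± 0.343 (edgeR adjusted p = 0.151 and 0.496).

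The nuclear IκB proteins also split. Bcl3, a coactivator that binds dimers of p50 or p52 (chromosome 7, 19808462 to 19822770, minus strand), had 4.97, 4.21 and 3.88 CPM in WT CD and 12.6, 14.6 and 20.2 in HoipA-KO CD. Every HoipA-KO library had more than every WT library, and the log2 fold change was 1.82 ± 0.241 (edgeR adjusted p = 0.000697). Nfkbiz, which encodes IκBζ (chromosome 16, 55811375 to 55838899, minus strand), had 8.09, 5.47 and 7.57 CPM in WT CD and 10.3, 6.26 and 9.83 in HoipA-KO CD. The groups overlapped, and the estimate was 0.41 ± 0.274 (edgeR adjusted p = 0.259). Exons of genes on the opposite strand covered 14.5% of the exon bases of Nfkbib through Ccer2, 11.6% and 6.52% of those of Nfkb2 through AC114539.1 and Psd, and 6.51% of those of Bcl3 through Gm16175, and the libraries were stranded by the study's methods, but whether counting used the strand is not given in the sources used here, so the share of such reads in these values is not known.

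**Figure D2:**
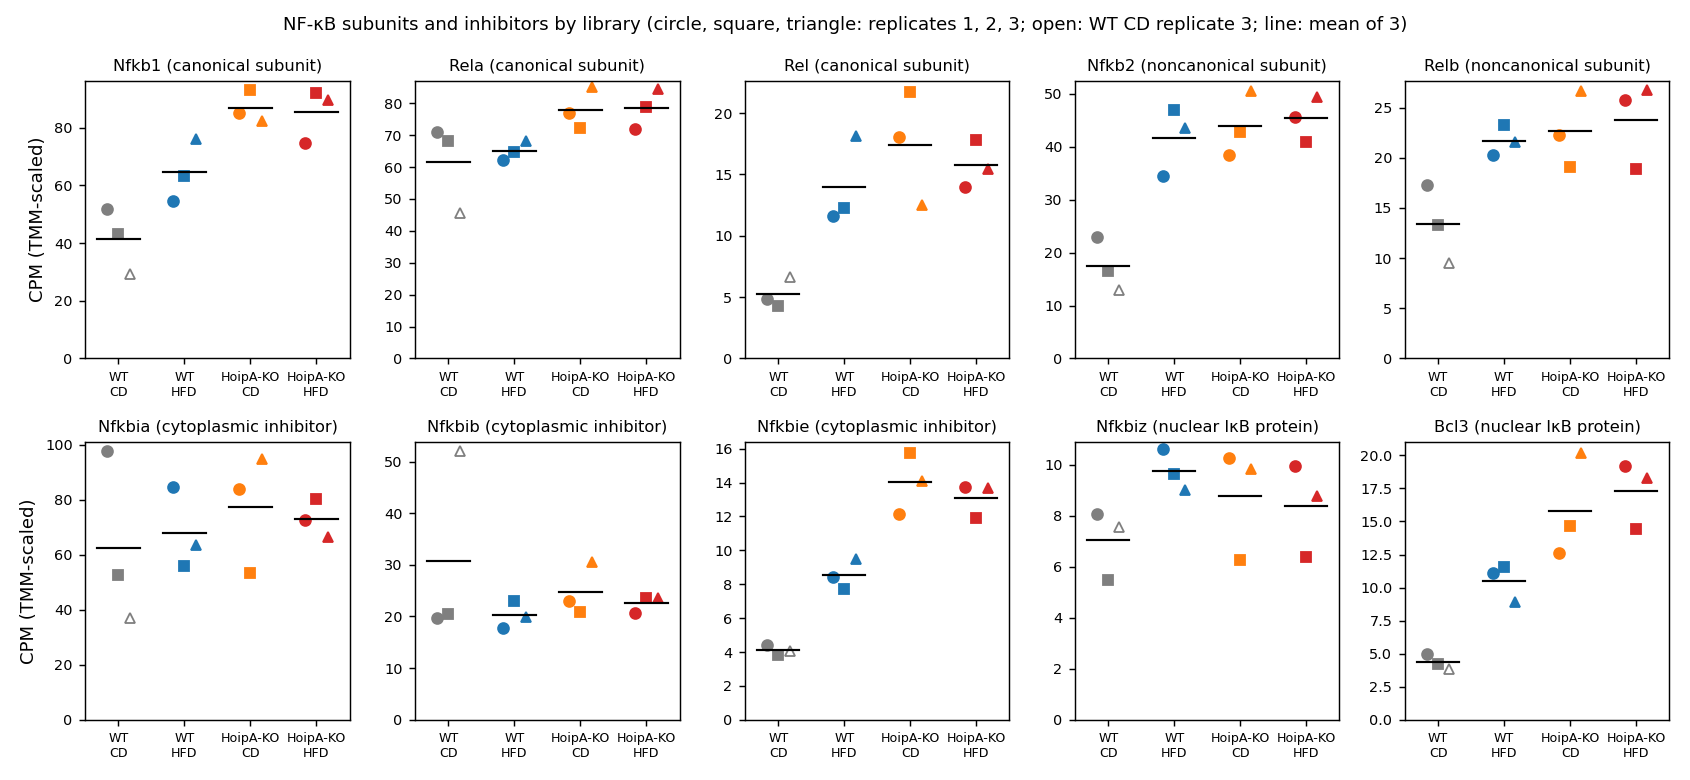
CPM of the 10 members in the 12 libraries, 1 panel per gene and 1 point per library, with the mean of each group as a line and WT CD replicate 3 as an open symbol. Rel, Nfkb2, Nfkbie, Bcl3, Nfkb1 and Relb are lowest in WT CD without overlap with any other group, while Nfkbia, Nfkbib and Nfkbiz overlap between genotypes on both diets.

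On HFD the genotypes were closer, and only Nfkbie and Bcl3 were called, both higher in HoipA-KO. Nfkbie had 8.40, 7.71 and 9.49 CPM in WT HFD and 13.7, 11.9 and 13.7 in HoipA-KO HFD, a log2 fold change of 0.64 ± 0.163 (edgeR adjusted p = 0.0377). Bcl3 had 11.1, 11.6 and 8.90 CPM in WT HFD and 19.2, 14.5 and 18.3 in HoipA-KO HFD, a log2 fold change of 0.73 ± 0.202 (edgeR adjusted p = 0.0452). For both genes the HoipA-KO libraries lay above all WT ones, as they did for Rela with 62.3, 64.7 and 68.0 CPM against 71.9, 78.9 and 84.5. Rela was not called at 0.29 ± 0.111 (edgeR adjusted p = 0.112). Of all genes tested, 4.2% were called higher and 7.62% lower. Over all 12 libraries these shares were 0.531% and 2.25%, and neither member passed, with edgeR adjusted p of 0.106 for Nfkbie and 0.117 for Bcl3, so the calls rest on the choice of libraries. At an unadjusted p under 0.05, 4 members were higher and 0 lower, beside 15.5% and 16.1% of all genes. DESeq2 called 4 higher and 0 lower, beside 12% and 12.3%. The calls also fell to 0 without any 1 of WT HFD replicates 1 and 2, HoipA-KO CD replicate 1 and HoipA-KO HFD replicates 1, 2 and 3. Of the macrophage markers 3 of 8 were higher on HFD, with a median of 1.04, and 8 of 8 adipocyte markers were lower, with a median of -2.04, while over all 12 libraries these counts were 0 and 6.

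The other members were not called on HFD. Nfkb1 had 54.4, 63.3 and 76.1 CPM in WT HFD and 74.5, 91.9 and 89.6 in HoipA-KO HFD, with an estimate of 0.42 ± 0.159 (edgeR adjusted p = 0.109). It passed with DESeq2 (adjusted p = 0.0282), with scaling by library size alone (edgeR adjusted p = 0.0396) and without WT HFD replicate 3 (edgeR adjusted p = 0.0428). The groups overlapped in 1 library of each. Rel had 11.6, 12.2 and 18.1 CPM against 14.0, 17.8 and 15.5, Nfkb2 34.5, 47.0 and 43.7 against 45.7, 40.9 and 49.5, and Relb 20.3, 23.2 and 21.6 against 25.7, 18.9 and 26.8. Their estimates were 0.19 ± 0.245, 0.14 ± 0.173 and 0.15 ± 0.173, so Rel and both noncanonical genes, which differed on CD, were not separated on HFD. Nfkbia had 84.5, 55.9 and 63.5 CPM against 72.7, 80.2 and 66.6, Nfkbib 17.8, 23.0 and 19.9 against 20.7, 23.6 and 23.6, and Nfkbiz 10.6, 9.65 and 9.004 against 9.96, 6.37 and 8.80. All 3 overlapped, with estimates between -0.21 and 0.18.

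In WT mice 4 members were higher on HFD than on CD and none was lower. They were Rel with a log2 fold change of 1.64 ± 0.293 (edgeR adjusted p = 0.00896), Bcl3 with 1.21 ± 0.235 (edgeR adjusted p = 0.0116), Nfkb2 with 1.09 ± 0.200 (edgeR adjusted p = 0.00951) and Nfkbie with 1.07 ± 0.189 (edgeR adjusted p = 0.00852). In each of them the lowest WT HFD library was above the highest WT CD library. The same held for Nfkb1, Relb and Nfkbiz, which were not called. Of all genes tested, 9.35% were called higher and 5.47% lower, and over all 12 libraries 9.05% and 5.97%, with 4 members again. DESeq2 also called 4 members higher and 0 lower, beside 13.2% and 11.8% of all genes, and at an unadjusted p under 0.05 there were 6 and 0, beside 16.9% and 15.2%. Nfkb1 at 0.46 ± 0.180 and Relb at 0.52 ± 0.197 were the members with an unadjusted p under 0.05 that did not pass (edgeR adjusted p = 0.114 and 0.104). Rela at -0.08, Nfkbia at -0.13, Nfkbib at 0.02 and Nfkbiz at 0.54 were not called. This comparison shares the WT CD libraries with that of the genotypes on CD, so the recurrence of the same 4 genes is not a second, separate observation. Without WT CD replicate 2 only 1 of the 4 calls was left, and a fit of these 2 groups alone called 0 genes of the whole table in either direction, with 4666 at an unadjusted p under 0.05. In this comparison 7 of 8 macrophage markers were called higher, with a median of 2.69, and no adipocyte marker was called.

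In HoipA-KO mice no member differed between the diets. The 10 estimates of HFD against CD ran from -0.16 for Rel to 0.12 for Bcl3, with SE from 0.111 to 0.270, and every adjusted p was 1. edgeR called 0% of all genes in either direction over 11 or 12 libraries, with 415 genes (2.25%) over 11 libraries and 252 over 12 at an unadjusted p under 0.05, and DESeq2 called 7 genes (0.0385%), none of them a member. No member reached an unadjusted p under 0.05. An estimate of this precision does not show that the diets were equal, and for Nfkbia, whose SE was 0.270, it left the widest room.

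The difference between the genotype effects on the 2 diets was itself tested. The effect of HoipA-KO was smaller on HFD than on CD for Rel, with a difference of -1.80 ± 0.378 on the log2 scale (edgeR adjusted p = 0.0360), and for Nfkbie, at -1.18 ± 0.247 (edgeR adjusted p = 0.0357). Bcl3 at -1.09 ± 0.306 (adjusted p = 0.0820) and Nfkb2 at -1.06 ± 0.262 (edgeR adjusted p = 0.0564) did not pass, nor did Nfkb1 at -0.50 or Relb at -0.46. WT CD had the lowest levels of both genes. For Nfkbie the group means were 4.10 ± 0.296 CPM on CD and 8.53 ± 0.896 on HFD in WT, against 14.0 ± 1.82 and 13.1 ± 1.05 in HoipA-KO (SD, n = 3). Of all genes tested, 0.331% had a higher and 3.58% a lower effect on HFD. Over all 12 libraries the shares were 0.0775% and 2.7%, and neither gene passed (edgeR adjusted p = 0.0707 for Rel and 0.0570 for Nfkbie). At an unadjusted p under 0.05, 4 members were lower and 0 higher over 11 libraries, beside 12.7% and 10.3% of all genes. DESeq2 called 4 lower and 0 higher, beside 8.33% and 5.12%. No call was left without any 1 of WT CD replicate 2, WT HFD replicates 2 and 3, HoipA-KO CD replicates 1 to 3 and HoipA-KO HFD replicates 1 and 3, and without WT CD replicate 1 there were 4. Of the macrophage markers 4 of 8 had a smaller effect on HFD by the same test.

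**Figure D3:**
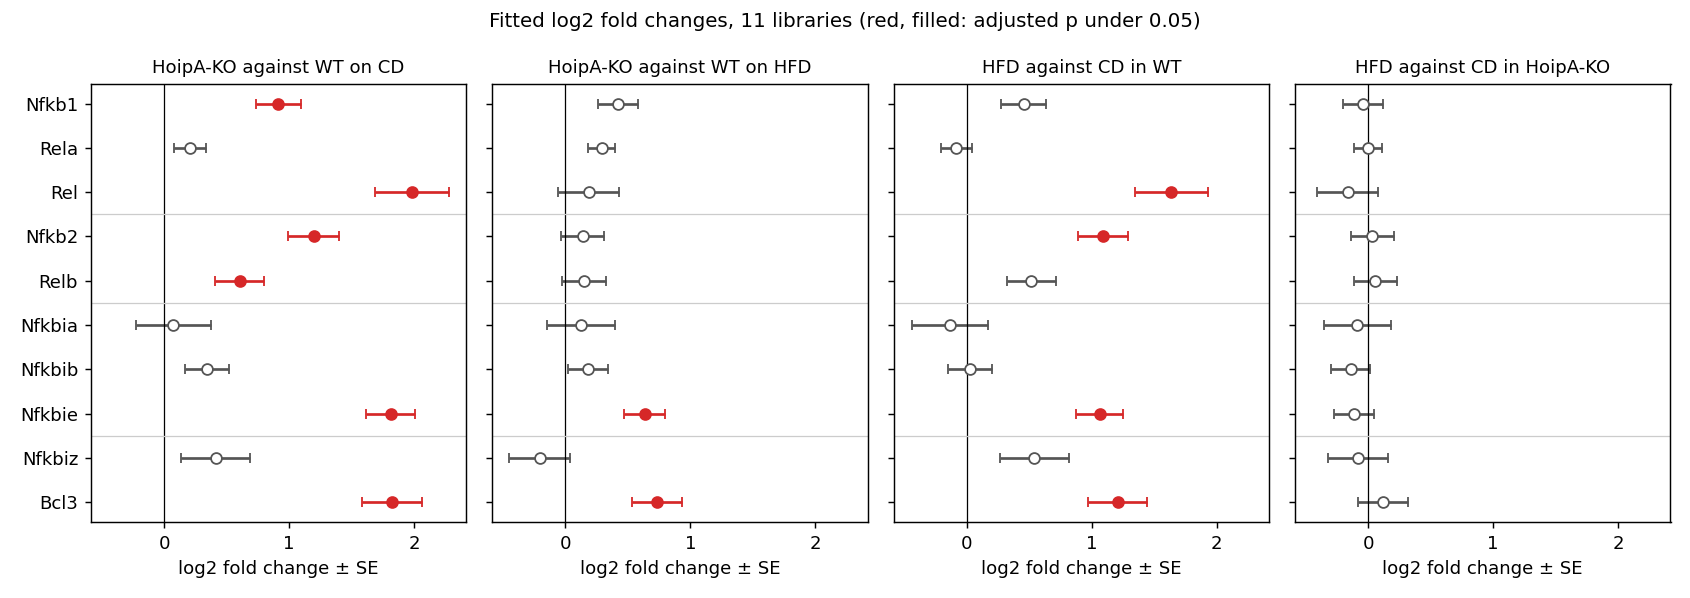
Fitted log2 fold changes with their SE for the 10 members in 4 comparisons, with genes called at an adjusted p under 0.05 filled in red. The 6 calls on CD run from 0.61 to 1.99, 2 remain on HFD at 0.64 and 0.73, the 4 for HFD in WT run from 1.07 to 1.64, and the estimates for HFD in HoipA-KO lie between -0.16 and 0.12.

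The division into canonical and noncanonical subunits did not divide the changes on CD. Estimates of the 3 canonical subunits ran from 0.21 to 1.99, and those of the 2 noncanonical ones, 0.61 and 1.197, lay inside that range. The balance between the arms was followed as the log2 ratio of the summed CPM of Nfkb2 and Relb to that of Nfkb1, Rela and Rel, for which no test was made, and which weighs each gene by its length as well as its abundance. In WT it was -1.66, -1.96 and -1.86 on CD and -1.23, -0.997 and -1.31 on HFD, and in HoipA-KO it was -1.57, -1.59 and -1.22 on CD and -1.17, -1.66 and -1.31 on HFD. WT CD lay below all other libraries, with a gap to the lowest HoipA-KO library of only -1.661 against -1.658. The group means were -1.83 ± 0.151, -1.18 ± 0.164, -1.46 ± 0.209 and -1.38 ± 0.252 (SD, n = 3), so WT HFD had the highest. The ratio of Nfkb2 to Nfkb1, the 2 precursors, was -1.25 ± 0.124 on CD and -0.63 ± 0.188 on HFD in WT, against -0.99 ± 0.247 and -0.91 ± 0.236 in HoipA-KO. WT HFD lay above WT CD in every library, and both HoipA-KO groups overlapped with WT HFD while their lowest libraries were just above the highest of WT CD. Relb over Rela followed the same order of group means, with -2.22 ± 0.167, -1.58 ± 0.0949, -1.79 ± 0.1254 and -1.74 ± 0.299. Here WT CD and HoipA-KO HFD overlapped, with -2.03 in WT CD replicate 1 and -2.07 in HoipA-KO HFD replicate 2. Within the canonical arm, Rel over Rela was -3.55 ± 0.667 in WT CD and between -2.32 and -2.20 on average in the other 3 groups.

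**Figure D4:**
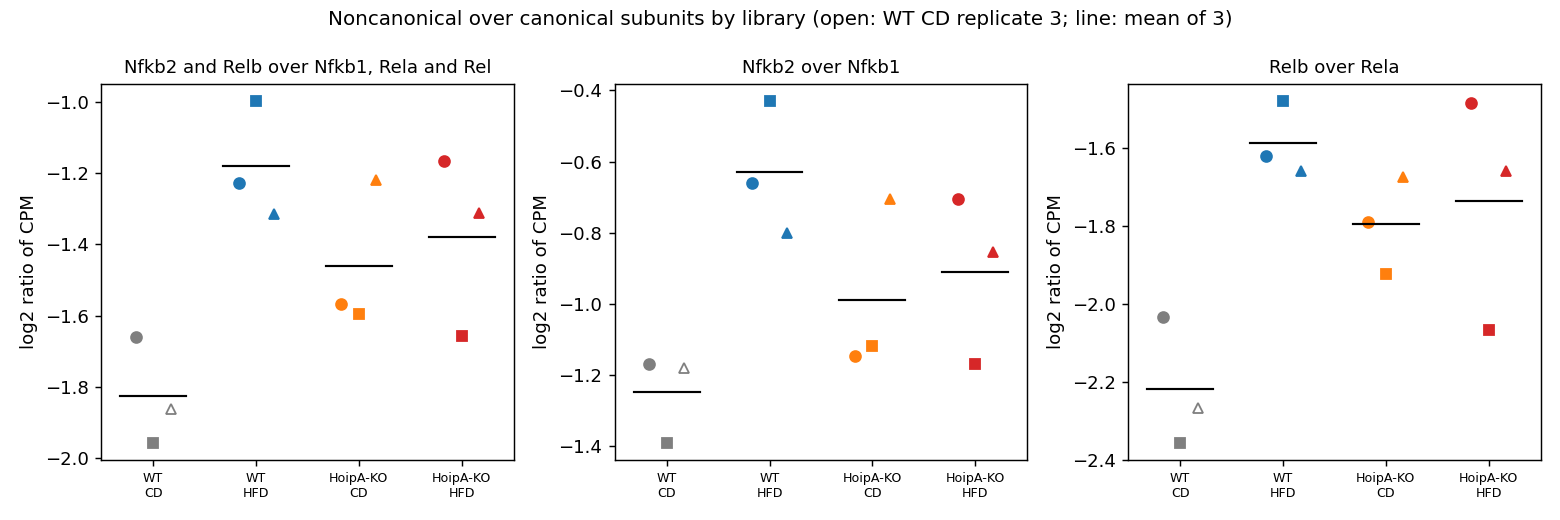
Log2 ratios of noncanonical over canonical subunits by library, for the summed subunits, for Nfkb2 over Nfkb1 and for Relb over Rela, with group means as lines. The mean of the summed ratio is -1.83 in WT CD and -1.18 in WT HFD, with the HoipA-KO groups at -1.46 and -1.38 between them.

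Levels were compared between genes as CPM per kilobase of annotated exon, the union over all transcripts of a gene. This union was 12061 bases for Nfkb1, 4584 for Nfkb2 and 3885 for Relb. It can exceed the transcripts in use, which lowers the value, so the order depends on these lengths. Without the division, Nfkb1 had a mean of 41.4 CPM in WT CD, Nfkb2 17.5 and Relb 13.4. In WT CD the order was Nfkbia with a mean of 38.8 ± 19.6 CPM per kb, Rela with 20.0 ± 4.54, Nfkbib with 14.2 ± 8.50, Nfkb2 with 3.81 ± 1.12, Relb with 3.44 ± 1.01, Nfkb1 with 3.44 ± 0.942, Bcl3 with 1.76 ± 0.226, Nfkbiz with 1.40 ± 0.276, Nfkbie with 1.35 ± 0.0973 and Rel with 0.701 ± 0.163 (SD, n = 3). Libraries of neighbours in this order overlapped except between Nfkbib and Nfkb2, between Nfkb1 and Bcl3, and between Nfkbie and Rel. The overlaps of Nfkbia with Rela, of Rela with Nfkbib and of Bcl3 with Nfkbiz rest on WT CD replicate 3, and without it Nfkbia, Rela and Nfkbib were apart, at 46.7, 22.6 and 9.26 CPM per kb (n = 2). In HoipA-KO CD Nfkbia with 48.0 ± 13.4, Rela with 25.4 ± 2.12 and Nfkbib with 11.4 ± 2.32 led again. Below them came Nfkb2 with 9.59, Nfkb1 with 7.20, Bcl3 with 6.38, Relb with 5.83, Nfkbie with 4.6002, Rel with 2.33 and Nfkbiz with 1.75. Here neighbours overlapped except among the first 3, between Nfkb2 and Nfkb1 and between Nfkbie and Rel. The 3 most abundant members per length on CD, Nfkbia, Rela and Nfkbib, were among the 4 that were not called. Rel, the least abundant per length in WT CD, had the largest estimate. The WT CD libraries enter both the levels and the estimates, so these are not separate observations.

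Profiles over the 12 libraries were compared by the root mean square (RMS) difference of centred log2(CPM + 1) values, over 10262 genes with at least 10 CPM on average. All libraries, and so the group differences above, enter this measure, and it is given as a description. The most alike pair of members was Nfkbie and Bcl3 (0.222), followed by Rela and Relb (0.262) and by Nfkb1 and Nfkb2 (0.265). The distance of Rela and Relb exceeded Rela's own RMS deviation from its mean (0.226), so it does not show a shared profile. Nfkb1 and Nfkb2 join a canonical to a noncanonical gene. Outside the family, Nfkbie was nearest to Map3k14, which encodes NIK (0.157), and to Ifngr2, a subunit of the interferon-γ receptor (0.159). Bcl3 was nearest to Mmp23 (0.167) and Socs3 (0.200), Rel to Cttnbp2nl (0.145) and Arhgef6 (0.155), and Nfkb1 to Flii (0.0917) and Ifnar1 (0.0919). Nfkb2 was nearest to Mapkapk3 (0.143) and Kctd11 (0.153), Relb to Plekhg3 (0.146) and Plscr3 (0.149), and Rela to U2af2 (0.0619) and Tmub2 (0.0620). For Nfkbia the nearest were Boc (0.183) and Rilpl1 (0.184), for Nfkbib Rrp1 (0.110) and Ciapin1 (0.115), and for Nfkbiz Shb (0.173) and Tsc22d1 (0.175). Nfkbib had 52.0 CPM in WT CD replicate 3, the library left out of the tests, and 17.8 to 30.5 in the others. That library therefore weighs heavily on the distances of Nfkbib. Small distances of Rela go with its small spread, since its own RMS deviation from its mean was 0.226 against 0.720 for Bcl3.

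Around the members, 32 of 62 other pathway genes were called higher and 5 lower in HoipA-KO on CD, with a median log2 fold change of 0.62. On HFD 6 were higher and 2 lower, in WT on HFD against CD 17 higher and 0 lower, in HoipA-KO on HFD against CD 0 and 0, and the genotype effect was smaller on HFD for 9. Over all 12 libraries, with 61 of the genes tested, the counts were 29 and 5, 0 and 0, 18 and 0, 0 and 0, and 6. The higher calls on CD fell from 6 to 5 for canonical ligands and receptors. They fell from 3 to 2 for NIK and its turnover, and from 2 to 1 for IκB relatives. The shares of all genes called in these comparisons stand above.

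Ligands and receptors had the largest estimates on CD. Of 8 canonical ones 6 were higher and 0 lower. Tnf had 0.171, 0.391 and 0.464 CPM in WT CD and 4.29, 2.81 and 4.05 in HoipA-KO CD, a log2 fold change of 3.75 ± 0.455 (edgeR adjusted p = 0.000540), and Tlr2, a receptor for bacterial lipoproteins, changed by 2.61 ± 0.222 (edgeR adjusted p = 0.000452). Of 13 noncanonical ones 7 were higher and 0 lower. Tnfrsf11a, which encodes the receptor RANK, had 4.78, 4.15 and 3.15 CPM in WT CD and 69.8, 78.3 and 53.6 in HoipA-KO CD. Its log2 fold change was 3.96 ± 0.441 (edgeR adjusted p = 0.000467), and that of Tnfrsf1b, which encodes TNF receptor 2, was 3.76 ± 0.422 (edgeR adjusted p = 0.000477). Macrophages are among the cells known to express both receptors, and the macrophage markers given above moved the same way. The part of macrophage content in the values of these receptors was not tested.

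Between receptor and kinase, 6 of 8 adaptors were higher and 0 lower, led by Traf5 (1.42 ± 0.204) and Irak4, the kinase of the MyD88 complex (1.39 ± 0.238). NIK and the proteins that control its turnover gave 3 higher and 1 lower of 5. Map3k14 had 7.82, 7.21 and 6.12 CPM in WT CD and 18.6, 20.99 and 20.5 in HoipA-KO CD, without overlap, and rose by 1.46 ± 0.174 (edgeR adjusted p = 0.000519). Traf3, which brings NIK to its degradation, rose by 0.78 ± 0.184 (edgeR adjusted p = 0.00991) at the same time. Among 10 genes of the IKK complex and upstream kinases 5 were higher and 1 lower. Ikbke, an IKK-related kinase, had 8.07, 5.99 and 5.51 CPM in WT CD and 38.2, 42.7 and 46.0 in HoipA-KO CD (2.63 ± 0.277, edgeR adjusted p = 0.000452), and Map3k8, the kinase TPL2 that p105 binds, rose by 1.64 ± 0.231. Chuk, Ikbkb and Ikbkg, the 3 components of the core IKK complex, had estimates of -0.29, 0.70 and 0.38 on CD, of which that of Ikbkb passed.

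LUBAC supplies the linear ubiquitin chains, and A20 and its partners oppose the signal. Of the 3 LUBAC genes, Sharpin rose by 0.42 ± 0.134 on CD (edgeR adjusted p = 0.0333) and had an estimate of 0.46 on HFD, called over 11 libraries and not over 12, and Rnf31 (-0.08) and Rbck1 (0.12) were not called. Of 7 deubiquitinases and feedback genes 2 were higher and 0 lower, Tnip2 (1.04 ± 0.196) and Tnip1 (0.65 ± 0.148), whose products bind the deubiquitinase A20. Of 4 IκB relatives, Nfkbid, which encodes IκBNS, rose by 3.00 ± 0.382 from 1.29, 0.803 and 0.761 CPM to 7.80, 7.08 and 9.52 (edgeR adjusted p = 0.000617), a larger estimate than that of any of the 10 members. Nkiras1, a small GTPase that binds IκBβ, fell by 1.07 ± 0.260 (edgeR adjusted p = 0.0110). Of 4 genes of the ubiquitin ligase for IκB 0 were higher and 2 lower, Skp1 with -0.65 ± 0.142 and Btrc with -0.55 ± 0.142.

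**Figure D5:**
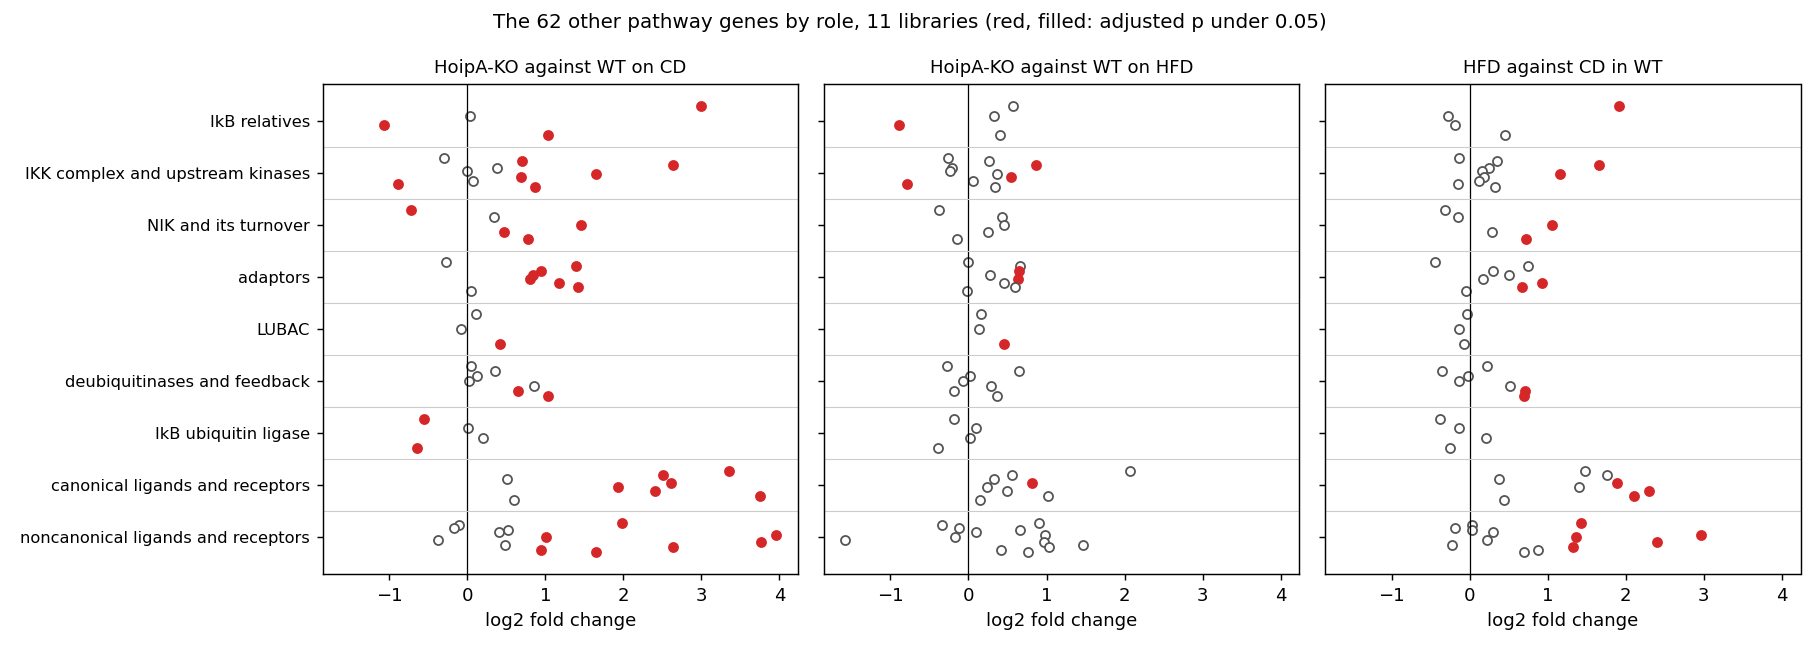
Log2 fold changes of the 62 other pathway genes by role in 3 comparisons, 1 point per gene, with genes called at an adjusted p under 0.05 in red. On CD 32 red points lie above 0 and 5 below, most of the largest among ligands and receptors, while on HFD 6 lie above 0 and 2 below.

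Of 20 NF-κB target genes, 19 were tested, and 12 were called higher and 2 lower in HoipA-KO on CD. The median log2 fold change of the 19 was 1.58. The 2 lower were Sod2 (-0.90 ± 0.205, edgeR adjusted p = 0.00807) and Nos2 (-1.52 ± 0.457, edgeR adjusted p = 0.0271). Over all 12 libraries Nos2 did not pass (edgeR adjusted p = 0.0521). Bcl2a1b, an anti-apoptotic BCL2 relative of leukocytes, had 2.92, 3.21 and 1.87 CPM in WT CD and 81.4, 56.8 and 88.0 in HoipA-KO CD (4.66 ± 0.495, edgeR adjusted p = 0.000452). Cxcl2, a neutrophil chemokine, had 0.317, 0.152 and 0.334 CPM in WT CD and 3.05, 2.31 and 3.71 in HoipA-KO CD (3.72 ± 0.784, edgeR adjusted p = 0.00578). Reads of Bcl2a1b may be shared with its near-identical copies Bcl2a1a and Bcl2a1d. Both copies are also among the 12 called higher on CD, so these calls may not be separate. On HFD 4 targets were higher and 1 lower, and in WT on HFD against CD 4 were higher and 0 lower. Over all 12 libraries these counts were 12 and 1 on CD, 2 and 0 on HFD, and 6 and 0 for HFD in WT. They stand beside the shares of all genes given for the same comparisons above.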

How the data were processed

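Polyadenylated RNA of GWAT was sequenced in 12 libraries. The authors trimmed reads with Trim Galore 0.6.7, aligned them with STAR 2.7.10a and quantified genes with Salmon 1.5.2, by the submitters' processing notes. These name GRCm38, whereas a human assembly stands in the study's methods, and the strand setting of the counting, of libraries made with a kit that marks strand, is not given in the sources used here. The values used are the estimated counts that the authors deposited for 55281 genes, without normalization. They were rounded to whole numbers. The deposited table of protein-coding genes (21646) served as an alternative, and the tables of the authors' DESeq2 comparisons (fold changes, p-values, CPM of 11 libraries) were not used.

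Genes were filtered with filterByExpr and scaled by TMM, and edgeR 4.0.16 (R 4.3.3) fitted 1 mean per group with the quasi-likelihood test and Benjamini-Hochberg adjustment over all 18427 genes tested, or 18074 over 12 libraries. A gene was called at an adjusted p under 0.05. SE is the log2 fold change over the root of F. The scripts were checked on simulated counts. DESeq2 1.42.0 was 1 of the alternatives, with other scalings and filters, the block, and each library left out in turn. Gene positions and exon lengths are those of GENCODE on GRCm38, which held 52000 of the 55281 identifiers. Depth sets a floor of 3 counts per library, or 0.0496 to 0.0983 CPM. This covers counting error only.

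Named were all members, in each list of other genes the 2 genes called on CD with the largest absolute change and a mean of at least 1 CPM, the 3 LUBAC genes, and the 2 genes nearest to each member. Ikbkb, Ikbkg, Chuk, Sod2 and Nos2 were named after their values were seen. The members and all lists were chosen with earlier results of these data known. Replicate numbers were checked by correlated deviations from the group means. For HoipA-KO CD and HoipA-KO HFD these gave a hint of pairing, which the design does not state. Nothing says whether pools of 1 group came from separate litters.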

Additional observations from a re-analysis of the deposited data

Results flagged for a closer look

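Rel and Nfkbie were singled out because the genotype effect differed between the diets by a test of that difference. For Rel the log2 fold change of HoipA-KO against WT on HFD differed from that on CD by -1.80 (edgeR adjusted p = 0.0360, 11 libraries), from 1.99 on CD to 0.19 on HFD, and all 3 HoipA-KO libraries were above all WT libraries on CD. For Nfkbie the difference was -1.18 (edgeR adjusted p = 0.0357), from 1.81 to 0.64, with the HoipA-KO libraries above all WT ones on both diets. Macrophage markers moved in the same direction, with 4 of the 8 called in the same test. The part of this in the values of Rel and Nfkbie was not tested.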

How the results depend on the processing

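The 6 calls on CD stayed at 5 or 6 without each single library, and Rel, Nfkb1, Nfkb2, Nfkbie and Bcl3 kept theirs under all 23 alternatives. The 2 calls on HFD became 0 over all 12 libraries, with no filter, at an adjusted p under 0.01 and over 12 libraries without WT CD replicate 1 or 2, 1 with the replicate block and 4 with DESeq2, and 0 to 2 without single libraries. The 4 calls for HFD in WT became 0 in a fit of the 2 groups alone and 1 to 4 without single libraries. The 2 interaction calls became 0 over 12 libraries, with the replicate block and at an adjusted p under 0.01, 1 with no filter, 4 with DESeq2, 4 over 12 libraries without WT CD replicate 1, 0 over 12 without replicate 2, and 0 to 4 without single libraries. The cause was not tested.

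Among estimates given above, signs turned for Nfkbib, Nfkbia and Rela, none of which was called in these comparisons over 11 libraries. On CD Nfkbib had -0.31 over 12 libraries and -0.51 and -0.52 over 12 without WT CD replicates 1 and 2, and Nfkbia had -0.038 among protein-coding genes and -0.30 to 0.59 without single libraries, and it passed at 0.82 over 12 libraries without WT CD replicate 1 (edgeR adjusted p = 0.0422). On HFD Nfkbia ran from -0.0038 to 0.31 without single libraries. For HFD in WT, Rela had 0.079 and Nfkbia 0.12 over 12 libraries, 0.22 and 0.63 over 12 without WT CD replicate 1, and 0.16 and 0.015 over 12 without replicate 2. Nfkbib had -0.60, -0.81 and -0.81 in these 3 fits, -0.028 with DESeq2, -0.029 with its size factors, -0.061 with no filter, -0.017 with at least 10 counts everywhere, -0.076 among protein-coding genes, -0.075 in 2 groups alone and -0.037 with the block. Without single libraries Nfkbia ran from -0.51 to 0.39 and Nfkbib from -0.073 to 0.10. 

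Of 18 pairs of libraries with the same number 6 correlated over 0.1 in their deviations, against 7 of 36 other pairs, and 8 of 12 libraries correlated best with one of their own number, a hint from the data and not from the design. Between HoipA-KO CD and HoipA-KO HFD all 3 such pairs were over 0.1, at 0.144, 0.506 and 0.287. However, HoipA-KO HFD replicate 1 correlated more with HoipA-KO CD replicate 3 (0.261) than with HoipA-KO CD replicate 1. With the replicate block 0 members were called between these groups, as without it. In no other comparison were all 3 over 0.1, and blocked values are given as alternatives. Scaled by library size alone, 53.0% of the genes called on HFD were higher in place of 35.5%, 75.7% in place of 63.1% for HFD in WT, and the median of all genes for HFD in HoipA-KO moved from -0.01 to 0.09. With 2 or 3 pools per group, small differences were not detectable.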
